A study of Mus musculus with 8 samples.

Results

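The transcripts of 9 hepatocyte lineage transcription factors, Hnf4a, Foxa1, Foxa2, Foxa3, Onecut1, Onecut2, Cebpa, Cebpb and Prox1, were followed in livers of WT mice and of LXRDKO mice. The factors were taken by gene symbol from a table of 25010 genes, and all 9 were present and passed the filter on low values, which kept 15578 genes. RNA-Seq was performed on the left liver lobe of 2 WT and 2 LXRDKO mice, 1 library per mouse. All mice had a C57BL/6 background and an age of 8 wk, and food was withheld for 4 to 6 h. LXRDKO animals lack both liver X receptors, LXRα (Nr1h3) and LXRβ (Nr1h2), throughout the body, so differences in the liver can start in any cell type or organ. Nothing in the labels says whether the mice were littermates.

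Hepatocyte identity rests on a small set of transcription factors that bind each other's genes as well as the genes of mature liver function. HNF4A is a nuclear receptor that maintains the expression of apolipoprotein, clotting factor and bile acid genes. The FOXA proteins are pioneer factors that open compacted chromatin, the C/EBP proteins drive metabolic and acute-phase genes, the ONECUT proteins (HNF6 and OC-2) act in hepatobiliary development, and PROX1 is a homeobox factor of hepatoblasts and lymphatic endothelium that represses bile acid synthesis genes in the adult liver.

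Of the 9 transcripts, DESeq2 called 2 (Foxa2 and Hnf4a) higher in LXRDKO livers, where it called 1.56% of all genes it tested. In limma on log2(normalized count + 1), the main test, 0 of 9 passed the threshold of an adjusted P value of 0.05, against 0.321% of all genes tested. Sequence upstream of the start sites of Foxa2 and Hnf4a is shown with that of Foxa1, a paralog of Foxa2. The Foxa1 transcript level overlapped between the genotypes, as did that of Foxa3, whose sequence is not shown. The regions next to the transcripts called by DESeq2 and next to Foxa1 can so be read side by side. The sequences are from RefSeq on GRCm38.p6 and run 5′ to 3′ on the strand of the gene, from position −250 to −51 before the start site. Capitals mark the NF-Y core CCAAT and the FOXA core TGTTTAC on either strand.
Foxa2, upstream start site (chr2:148047020-148047219, minus strand): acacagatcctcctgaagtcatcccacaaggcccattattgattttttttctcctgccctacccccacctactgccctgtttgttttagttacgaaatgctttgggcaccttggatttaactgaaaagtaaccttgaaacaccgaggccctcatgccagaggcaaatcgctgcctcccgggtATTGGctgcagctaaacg
Foxa1 (chr12:57546162-57546361, minus strand): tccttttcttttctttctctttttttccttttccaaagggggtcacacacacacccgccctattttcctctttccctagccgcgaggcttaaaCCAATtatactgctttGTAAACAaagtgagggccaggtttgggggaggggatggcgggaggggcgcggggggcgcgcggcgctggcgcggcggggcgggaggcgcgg
Hnf4a, upstream start site (chr2:163506607-163506806, plus strand): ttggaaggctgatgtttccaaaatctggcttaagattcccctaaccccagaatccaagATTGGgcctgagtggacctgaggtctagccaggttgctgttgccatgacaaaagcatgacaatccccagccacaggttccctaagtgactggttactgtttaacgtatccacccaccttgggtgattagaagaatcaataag
Hnf4a, downstream start site (chr2:163546905-163547104, plus strand): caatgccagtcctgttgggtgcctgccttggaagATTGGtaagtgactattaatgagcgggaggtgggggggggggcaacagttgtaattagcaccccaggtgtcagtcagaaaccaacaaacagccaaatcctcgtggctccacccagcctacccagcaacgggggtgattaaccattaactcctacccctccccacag

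Of the 9 factors, 8 (all but Onecut2) had an entry in the RefSeq promoter table, with 12 promoters among them, each reaching from 250 bases before to 50 bases after a start site. The NF-Y core lay at position −68 of the Foxa2 promoter shown, at −157 of Foxa1, and at −192 and −216 of the upstream and downstream Hnf4a promoters, whose start sites are 40298 bases apart. Foxa2 has 3 promoters in the table, and the other 2 do not hold CCAAT, while promoters of the uncalled Foxa3 (position −108) and Prox1 (position 44) do. CCAAT occurs in 37.4% of all 32851 promoters in the table, so its presence does not set these promoters apart. TGTTTAC was found at position −141 of Foxa1 and in none of the other 11 promoters, against 3.65% of all promoters. The nuclear receptor half-site AGGTCA (16.3% of all promoters), its DR4 spacing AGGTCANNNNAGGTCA (0.0152%), its DR1 spacing AGGTCANAGGTCA (0.0396%), the C/EBP core TTGCNNAA (10.8%) and the HNF6 core ATCGAT (0.925%) had no match in the 12 windows. The DR1 and DR4 motifs contain the half-site. Their exact letters occur in 13 and 5 of all 32851 promoters, so their absence here says little about receptor sites. The paper states that many important liver X receptor elements are not perfect DR4 repeats. Only the exact letters given were searched. Forms that differ in a base were not, such as ATTGAT. The Foxa2 sequence shown holds ATTGAT, and the upstream Hnf4a sequence shown holds it on the other strand, as ATCAAT. Counts are per gene, so the start site in use in these livers was not measured.

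Reads on genes numbered 55772659 and 72842744 for the WT livers, compared with 63681131 and 56281367 for the LXRDKO livers. The labels were checked on the deleted genes. Nr1h3 had 5785 and 5322 normalized counts (reads divided by 1 size factor per library) in WT and 1712 and 1826 in LXRDKO livers, and Nr1h2 fell likewise (limma, adjusted P value = 0.0147 for each). The labels give no sex. Xist was between 5.70 and 10.4 normalized counts and the Y-linked Ddx3y between 4242 and 4916, so all 4 livers carried male transcripts. WT replicate 2 stood apart in genes known to differ between male and female liver, chosen after their values were seen. Its Cyp2a4 level was 3470 normalized counts against 34.2 to 83.6 in the other 3 livers, and its Cyp7b1 level was 5128 against 23124 to 30756. Without this liver, limma kept each of its calls among the listed genes and also called Foxa2, Nr0b2, Lcn2, Pklr, Spp1 and Timd4.

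Hnf4a (ENSMUSG00000017950, chr2:163506808-163572910 on GRCm38) was second among the 9 factors in counts per kilobase. It had 44147 and 38999 normalized counts in WT against 70769 and 56007 in LXRDKO livers. Its 2 LXRDKO values exceeded both WT values, although the LXRDKO livers differed from each other more than the WT livers did. The log2 fold change was 0.60 (SE 0.16, 95% interval 0.21 to 1.00), with an adjusted P value of 0.224 in limma, 0.223 in edgeR and 0.0115 in DESeq2 on the recovered reads.

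Foxa2 (ENSMUSG00000037025, chr2:148042877-148046969) had 1293 and 1614 normalized counts in WT against 2422 and 2294 in LXRDKO livers. The lowest LXRDKO liver exceeded the highest WT liver, and the LXRDKO livers were close to each other. The log2 fold change was 0.71 (SE 0.13, 95% interval 0.38 to 1.03), the largest of the 9. The adjusted P value was 0.131 in limma, 0.133 in edgeR and 0.00319 in DESeq2. Foxa2 is also expressed in cholangiocytes. Of 7 cholangiocyte markers tested, 7 had both LXRDKO livers above both WT livers, against 21.7% of all genes tested. The markers had a median log2 fold change of 0.82, and 0.45 without WT replicate 1. Their summed levels were 2133 and 3683 normalized counts in WT against 4658 and 5527 in LXRDKO livers. DESeq2 called 1 of them, Epcam (1.25), and their part in the Foxa2 value was not tested. The log2 fold change of Foxa2 depended on which liver was omitted. It was lowest, at 0.55, when WT replicate 1 was dropped and highest, at 0.87, when WT replicate 2 was dropped. Each of these fits compares 1 WT liver with the LXRDKO livers.

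**Figure D1:**
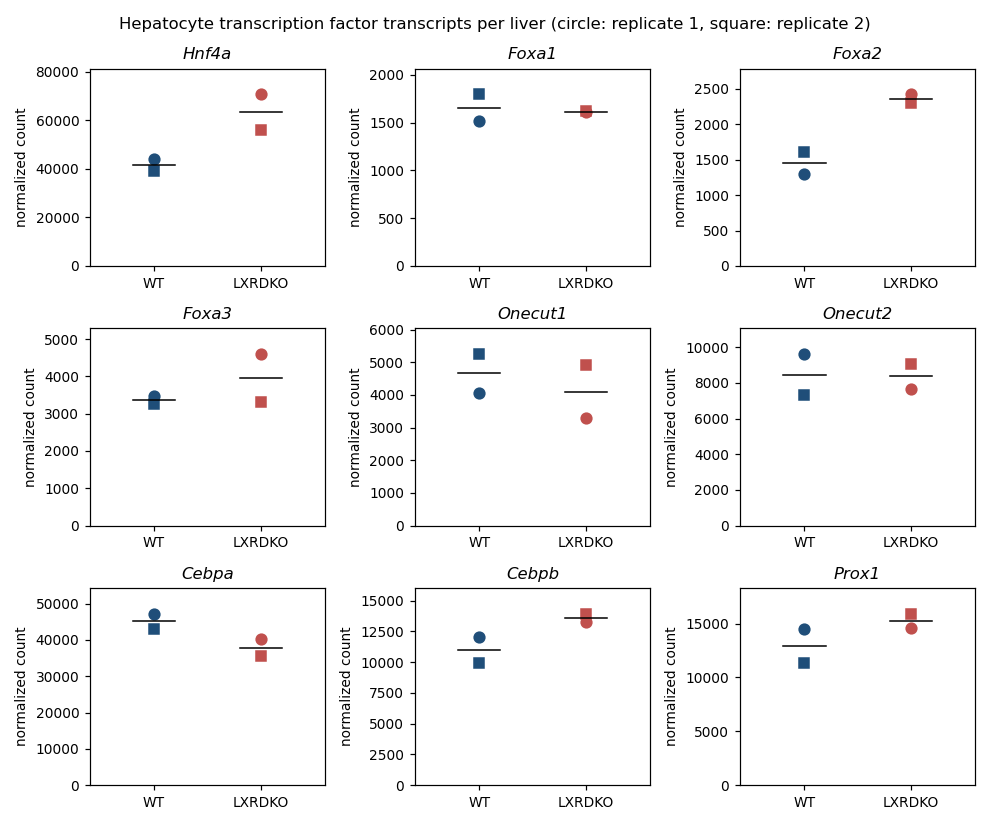
Normalized counts (y axis, linear, from 0) of the 9 transcription factors in each WT (blue) and LXRDKO (red) liver, with replicate 1 as a circle, replicate 2 as a square and the group mean as a line. Both LXRDKO livers sit above both WT livers for Hnf4a, Foxa2, Cebpb and Prox1, both sit below for Cebpa, and the groups overlap for Foxa1, Foxa3, Onecut1 and Onecut2.

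The other FOXA paralogs did not share this separation. Foxa1 (ENSMUSG00000035451, chr12:57540628-57546916) had 1515 and 1797 normalized counts in WT against 1609 and 1622 in LXRDKO livers, so that both LXRDKO values lay between the WT values. Its log2 fold change was −0.03 with a 95% interval from −0.32 to 0.26 (limma, adjusted P value = 0.946). Foxa3 (ENSMUSG00000040891, chr7:19013284-19023538) had 3475 and 3255 in WT and 4602 and 3307 in LXRDKO livers. LXRDKO replicate 2 lay between the WT livers and LXRDKO replicate 1 above them, with a log2 fold change of 0.21 and an interval from −0.20 to 0.63 (limma, adjusted P value = 0.657).

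Cebpa (ENSMUSG00000034957, chr7:35119293-35121928), a factor of metabolic hepatocyte genes that restrains proliferation, had 47280 and 42943 normalized counts in WT against 40161 and 35496 in LXRDKO livers. It was the 1 factor of the 9 with both LXRDKO livers below both WT livers. The log2 fold change was −0.26 (95% interval −0.57 to 0.06), which did not pass the test (limma, adjusted P value = 0.458; DESeq2, 0.530).

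Cebpb (ENSMUSG00000056501, chr2:167688915-167690418), a factor of the acute-phase and fasting responses, had 12075 and 9940 normalized counts in WT against 13256 and 13957 in LXRDKO livers. The groups did not overlap, and the log2 fold change was 0.31 (95% interval 0.01 to 0.61). The unadjusted limma P value over the 15578 genes was 0.0448 and the adjusted one 0.362.

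Prox1 (ENSMUSG00000010175, chr1:190118035-190170714) had 14487 and 11316 normalized counts in WT against 14542 and 15928 in LXRDKO livers. LXRDKO replicate 1 and WT replicate 1 were nearly level, so the lack of overlap rests on a small gap. The log2 fold change was 0.25 (95% interval −0.10 to 0.60; limma, adjusted P value = 0.534). Prox1 transcripts of whole liver can also come from lymphatic endothelium, for which 4 of 5 listed markers were tested. Flt4 was lower in LXRDKO livers (log2 fold change −0.61; DESeq2, adjusted P value = 0.0160), and Pdpn (0.02), Lyve1 (0.23) and Mmrn1 (0.26) were not called. The summed level of the list was 2338 and 2551 normalized counts in WT against 2024 and 1905 in LXRDKO livers. Flt4 alone made up most of this sum, with 1775 and 1603 in WT against 1200 and 1017 in LXRDKO livers. The part of lymphatic endothelium in the Prox1 value was not tested.

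The ONECUT transcripts varied more within a genotype than between genotypes. Onecut1 (ENSMUSG00000043013, chr9:74861921-74891781) had 4072 and 5253 normalized counts in WT against 3285 and 4920 in LXRDKO livers, with a log2 fold change of −0.20 and a 95% interval from −0.75 to 0.35 (limma, adjusted P value = 0.767). Onecut2 (ENSMUSG00000045991, chr18:64340020-64400987) had 9623 and 7306 in WT and 7645 and 9081 in LXRDKO livers. The Onecut2 groups overlapped fully, with a log2 fold change of −0.01 and an interval from −0.41 to 0.39 (limma, adjusted P value = 0.988).

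Counted together, limma called 0 of the 9 factors at an adjusted P value of 0.05, where 0.321% of all genes tested were called in either direction. At an unadjusted limma P value under 0.05, 3 of 9 passed (Foxa2, Hnf4a and Cebpb), against 13.3% of all genes tested. DESeq2 called 2 of 9 up-regulated and 0 down-regulated, where it called 1.56% of genes up-regulated and 2.03% down-regulated. edgeR called 0 of 9. The LXRDKO livers both exceeded the WT livers for 4 factors and both lay below them for 1, against 21.7% and 23% of all genes tested. The median log2 fold change of the 9 was 0.21, and that of all genes tested was 0.00. The median of the 9 was 0.09 without WT replicate 2 and 0.11 without LXRDKO replicate 1. These counts are a description of a named group of genes.

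**Figure D2:**
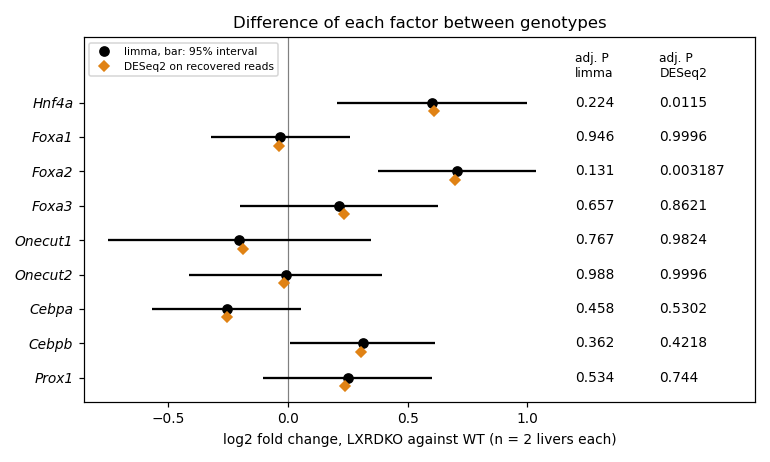
Log2 fold change of each factor (x axis) in LXRDKO against WT livers, from limma with its 95% interval (black) and from DESeq2 (orange diamond), with the adjusted P values at the right. The intervals of Hnf4a, Foxa2 and Cebpb lie above 0 and those of the other 6 include 0, while the DESeq2 adjusted P value is below 0.05 for Hnf4a and Foxa2.

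The levels of different factors were compared per kilobase of exon, using the union of exons of each gene in GENCODE M21. In WT livers Cebpa stood first, with 17113 ± 1163 normalized counts per kb (SD, n = 2), followed by Hnf4a with 8611 ± 754 and Cebpb with 7319 ± 1003. Foxa3 (1652), Prox1 (1538), Onecut1 (1134), Foxa2 (613), Onecut2 (521) and Foxa1 (498) followed as group means. Of these WT neighbours, Foxa3 and Prox1, Foxa2 and Onecut2, and Onecut2 and Foxa1 overlapped between livers. In LXRDKO livers the order of the 9 was the same, but the neighbours that overlapped were not all the same. Cebpa (14351 ± 1251) and Hnf4a (13129 ± 2162) overlapped there, as did Onecut1 (998) and Foxa2 (995), Foxa3 and Prox1, and Onecut2 and Foxa1.

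A ratio of 2 transcripts within a liver does not depend on the size factor. With 2 livers against 2, the exact two-sided permutation test cannot give a P value under 0.333, so no ratio can pass 0.05. Of the 5 ratios compared, 4 did not overlap between genotypes and each gave this smallest value. No share over other pairs of genes was computed. Of all single genes tested, 21.7% were higher and 23% lower in LXRDKO livers without overlap. The ratios are not independent, as Foxa2 enters more than 1 of them. The ratio of Foxa2 to Foxa1 was 0.854 and 0.898 in WT livers and 1.51 and 1.41 in LXRDKO livers, a log2 difference of 0.74 that exceeded the gap between livers of a genotype (0.07 and 0.09). Foxa2 to Foxa3 went from 0.372 and 0.496 in WT to 0.526 and 0.694 in LXRDKO livers. Per kilobase, Foxa2 made up 20.2% and 24.2% of the FOXA transcripts in WT and 27.1% and 31.4% in LXRDKO livers, while Foxa3 stayed the most abundant FOXA transcript in every liver (52.7% to 63.0%).

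The ratio of Cebpb to Cebpa was 0.255 and 0.231 in WT livers and 0.33 and 0.393 in LXRDKO livers, a log2 difference of 0.57 with within-genotype gaps of 0.14 and 0.25. Prox1 to Hnf4a was 0.328 and 0.290 in WT and 0.205 and 0.284 in LXRDKO livers, with LXRDKO replicate 2 close to WT replicate 2. Onecut2 to Onecut1 was 2.36 and 1.39 in WT and 2.33 and 1.85 in LXRDKO livers, so that these groups overlapped (exact permutation P value = 1).

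**Figure D3:**
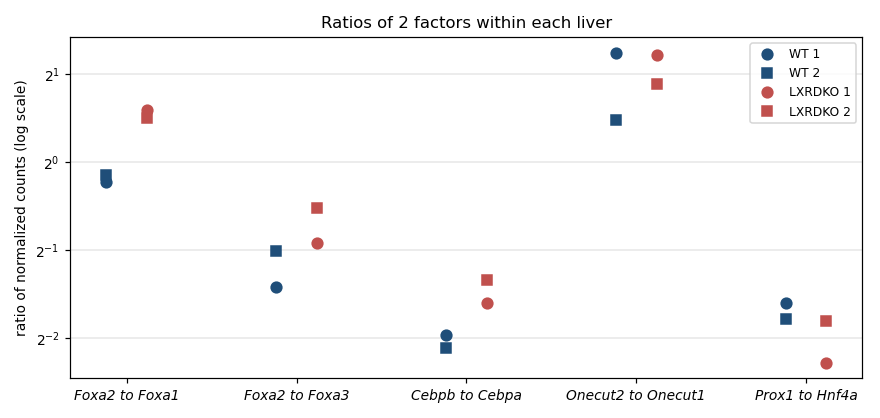
Ratio of the normalized counts of 2 factors in each liver (y axis, log scale), for WT (blue) and LXRDKO (red) livers. The Foxa2 to Foxa1 ratio is 0.854 and 0.898 in WT against 1.51 and 1.41 in LXRDKO livers, the widest separation relative to the gap between livers, and the Onecut2 to Onecut1 ratios overlap.

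Transcripts that overlap a factor on the other strand were read beside it, because the strand setting used in counting is not given in the sources used here. Hnf4aos, antisense to Hnf4a, had 632 and 349 normalized counts in WT against 363 and 272 in LXRDKO livers, far fewer than Hnf4a itself. Tmem189, which overlaps Cebpb, had 871 and 578 in WT and 946 and 905 in LXRDKO livers. Prox1os had 489 and 345 in WT and 409 and 396 in LXRDKO livers, Gm45091 opposite Cebpa lay between 174 and 267, and Gm28172 opposite Prox1 between 13.7 and 24.7. None of these passed the test (limma, adjusted P value from 0.508 to 0.970). Foxa2, Hnf4a and Cebpb lie on the chromosome of Nr1h3, at 56.84, 72.30 and 76.49 Mb from it, and Cebpa and Foxa3 lie on that of Nr1h2, at 9.428 and 25.53 Mb. Whether strain DNA flanking the deleted genes differed between the genotypes was not tested.

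For each factor, the transcription factors with the nearest pattern over the 4 livers were found among 42 others, by the largest difference in log2 deviation from each gene's own mean. Foxa2 lay nearest to Gata6 (0.27) and Hnf4a (0.30), and Hnf4a nearest to Foxa3 (0.26) and Foxa2 (0.30). Cebpa was followed most closely by Xbp1 (0.03) and Tcf7l2 (0.06). Cebpb lay nearest to Klf15 and Prox1 (0.07 each), and Prox1 nearest to Cebpb (0.07). Foxa1 lay nearest to Cebpg (0.06) and Esrra (0.10), Foxa3 to Atf5 (0.21) and Klf15 (0.26), Onecut1 to Nr2f1 (0.14) and Creb3l3 (0.23), and Onecut2 to Foxo1 (0.07) and Zbtb20 (0.08). These are descriptions over 4 livers of 2 genotypes.

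Of 7 listed paralogs of the factors, 6 were in the table and 6 were tested. DESeq2 called 1, Cebpd, a C/EBP factor of the acute phase. Cebpd had 808 and 570 normalized counts in WT against 1049 and 1300 in LXRDKO livers, a log2 fold change of 0.78 (DESeq2, adjusted P value = 0.0269; limma, 0.219). The others ranged from −0.24 (Prox2) to 0.35 (Hnf4g).

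Among 28 other liver transcription factors limma called 0, while 6 passed an unadjusted P value under 0.05 (1 higher, 5 lower) and DESeq2 called 3, all down-regulated. Of all genes tested, 13.3% passed this unadjusted threshold, and DESeq2 called 1.56% up-regulated and 2.03% down-regulated. Nr0b2, which encodes the corepressor SHP, had 1055 and 700 normalized counts in WT against 285 and 402 in LXRDKO livers (log2 fold change −1.34; DESeq2, adjusted P value = 8.49e-05). Ppara, the fasting-activated nuclear receptor of fatty acid oxidation, had 15122 and 12695 in WT and 8264 and 10337 in LXRDKO livers (log2 fold change −0.58; DESeq2, adjusted P value = 0.0282). Nr2f2 had 3664 and 4109 in WT and 2710 and 2675 in LXRDKO livers (log2 fold change −0.53; DESeq2, adjusted P value = 0.0099). The median of the 28 was −0.06, and −0.14 without WT replicate 2. Cux2 had the widest interval, with 41.1 and 226 normalized counts in WT against 252 and 39.7 in LXRDKO livers, so that livers of the same genotype differed by 2.43 and 2.64 on the log2 scale (limma, adjusted P value = 0.989). Cux2 is known for a higher level in female mouse liver, and here it was high in WT replicate 2 and LXRDKO replicate 1. The link of this pattern to the factors was not tested.

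Genes that the factors are known to bind did not move as 1 group. Of 25 HNF4A targets, limma called 0, and DESeq2 called 2 up-regulated and 3 down-regulated, and the median log2 fold change was 0.00. Of all genes tested, limma called 0.321% in either direction, and DESeq2 called 1.56% up-regulated and 2.03% down-regulated. Cyp7a1, the rate-limiting enzyme of bile acid synthesis, had 17587 and 16798 normalized counts in WT against 24854 and 29037 in LXRDKO livers (log2 fold change 0.64), and Tdo2, a tryptophan-degrading enzyme, had 105294 and 107706 against 174105 and 178312 (0.73). Fabp1, a fatty acid-binding protein, had 211049 and 246753 in WT and 112144 and 92912 in LXRDKO livers (−1.16), and Pklr (−0.83) and Mttp (−0.48) were the other genes DESeq2 called lower. Cyp8b1, with a log2 fold change of 0.84, was not called (DESeq2, adjusted P value = 0.0581).

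Of 17 C/EBP targets, limma called 1 up-regulated, Orm2, an acute-phase protein gene with 584 and 654 normalized counts in WT against 1495 and 1286 in LXRDKO livers (log2 fold change 1.16, adjusted P value = 0.0498). DESeq2 called 4 up-regulated, Orm2, Lcn2, Hp and Tat, where it called 1.56% of all genes it tested up-regulated. Lcn2 had 265 and 609 in WT and 1490 and 2664 in LXRDKO livers (2.31; limma, adjusted P value = 0.134). The list had a median log2 fold change of 0.21, which was 0.10 without LXRDKO replicate 2, 0.11 without WT replicate 1 and 0.35 without LXRDKO replicate 1, and Gys2 (−0.32) and Fgb (−0.27) lay lowest. Of 12 FOXA targets DESeq2 called 2 up-regulated, Tdo2 and Tat (0.65), with a median of −0.02 that ranged from −0.13 to 0.21 when each liver was left out, and Slc2a2 (−0.26) lowest. Of 8 ONECUT targets it called 1, Cyp7a1, with a median of 0.19 that was 0.03 without LXRDKO replicate 2, 0.11 without WT replicate 2 and 0.12 without WT replicate 1. Pck1 (0.35) was next, and Slc2a2 (−0.26) and Alb (−0.14) lay lowest.

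Fetal liver genes did not pass the test. Of 10 listed, 9 were in the table and 5 tested, and the median log2 fold change was −0.02, with a range from −0.54 to 0.61 when each liver was left out. Igf2bp3 (−2.46) and H19 (−0.20) lay lowest and Cd24a (0.66) and Gpc3 (0.37) highest, and limma and DESeq2 called 0 of them. Among 10 genes of the fasting and glucocorticoid response, Fkbp5 rose from 6870 and 6116 to 19131 and 16133 normalized counts (log2 fold change 1.44; limma, adjusted P value = 0.0257), DESeq2 also called Tat, and Igfbp1 (0.00) and Sik1 (0.12) lay lowest. The median of this list was 0.34, and 0.52 without LXRDKO replicate 1. Of all genes tested, limma called 0.321% in either direction and DESeq2 called 1.56% up-regulated. All 8 immediate early genes tested had values above 0 (median 0.51, from Ier3 at 0.16 and Junb at 0.18 to Jun at 0.60 and Atf3 at 0.65), and neither tool called any. That median was 0.07 without WT replicate 1 and 0.26 without LXRDKO replicate 2. The part of feeding state, stress hormones or handling in the values of the factors was not tested.

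In bulk liver, fewer cells of a type and less RNA per cell cannot be told apart. Of 16 hepatocyte markers, limma and DESeq2 called 0, and the median log2 fold change was −0.01. Their summed levels were 8094780 and 9018370 normalized counts in WT against 8443510 and 7739080 in LXRDKO livers. Alb alone made up most of this sum, with 4940810 and 5959090 in WT against 5214020 and 4644570 in LXRDKO livers. All 6 Kupffer cell markers lay below WT in both LXRDKO livers, 4 of them called by limma and 6 by DESeq2, with sums of 8331 and 8803 in WT and 860 and 492 in LXRDKO livers. Of all genes tested, 23% were lower without overlap, and limma called 0.321% in either direction. DESeq2 called 1.56% of genes up-regulated and 2.03% down-regulated. Of 6 general macrophage markers none was called by either tool (median −0.07, from −0.43 to 0.26 when each liver was left out), with sums of 8315 and 9631 in WT and 10906 and 6502 in LXRDKO livers. Of 7 sinusoidal endothelial markers limma called 2 down-regulated, Cdh5 (−1.28) and Kdr (−1.17), and the sums were 14754 and 13139 in WT and 11272 and 8520 in LXRDKO livers. Of 7 stellate cell markers DESeq2 called 2 up-regulated, Dcn (0.67) and Reln (0.50), with sums of 18306 and 21491 in WT and 25613 and 28192 in LXRDKO livers. Of 5 neutrophil markers 2 were tested and none was called, and of 7 exocrine pancreas markers 4 were in the table, 2 were tested and none was called. The part of these cell types in the values of the factors was not tested.

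**Figure D4:**
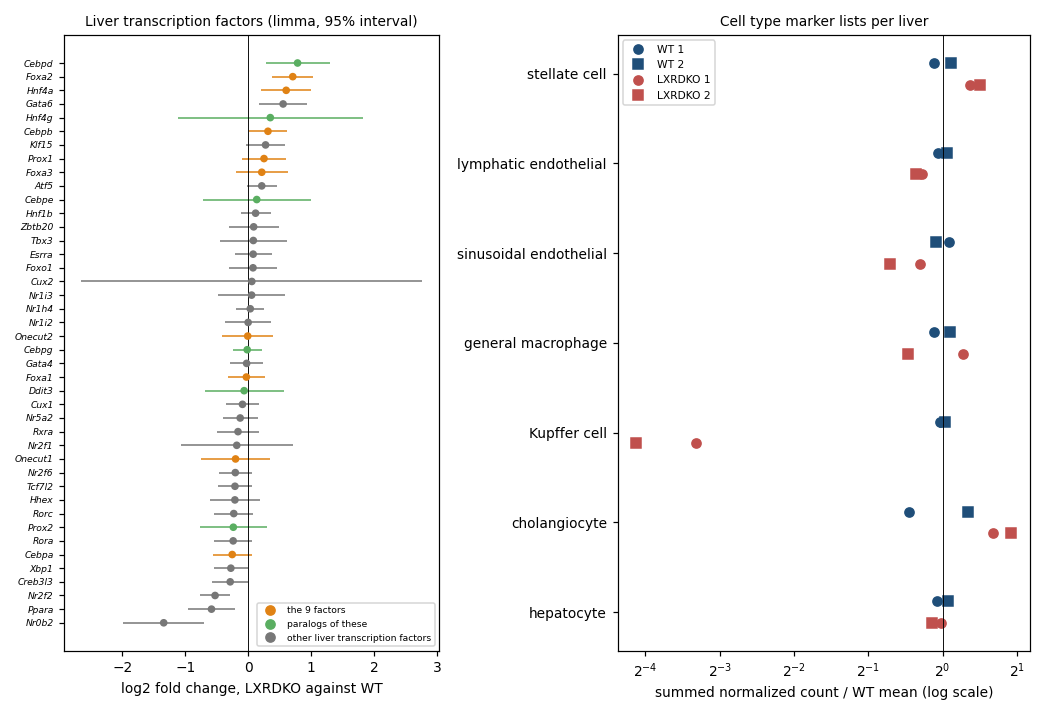
Left, log2 fold change with its 95% limma interval for the 9 factors (orange), their paralogs (green) and the other liver transcription factors reported here (grey). Right, summed normalized counts of cell type marker lists in each liver divided by the WT mean (log scale). The hepatocyte sum, most of which is Alb, is nearly level, and the Kupffer cell list lies far below WT in both LXRDKO livers.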

How the data were processed

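RNA-Seq of 2 WT and 2 LXRDKO livers was used, and the ATAC-Seq libraries were not analysed here. Per the submitters' notes and methods, the authors captured polyadenylated RNA, aligned single-end reads to mm10 with STAR 2.6.0c and normalized with DESeq2. The counting tool, annotation and strand setting are not given in the sources used here. The deposited values are a signal, normalized counts that the authors obtained by dividing reads by 1 size factor per library (0.877 and 1.18 for WT, 1.05 and 0.933 for LXRDKO). 100% of the values came out as whole reads, within 0.01 read, so reads could be recovered. Depth was between 55772659 and 72842744 reads on genes.

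From these values, log2(normalized count + 1) was tested with limma 3.58.1 (R 4.3.3), with a variance trend, for genes averaging 10 or more normalized counts, and P values were Benjamini-Hochberg adjusted over all 15578. A log2 fold change on this scale understates the change of low genes. Recovered reads were tested with DESeq2 1.42.0 and with the quasi-likelihood test of edgeR 4.0.16, which called 567 and 49 genes against 50 by limma. Fits were tested on simulated data. Each library is from 1 mouse. P values rest on the spread between these 4 livers, and in each tool the spread of a gene is estimated with help from that of other genes. Positions and exon lengths are those of GENCODE M21 (GRCm38), which held 24987 of the identifiers and lacked 23, and promoters came from RefSeq.

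The members and gene lists were chosen with earlier results of these data known. Genes named are the 9 members, the called genes among their paralogs and other liver transcription factors, the called and the 2 highest and 2 lowest genes of each target, fetal, fasting and immediate early list, the 2 factors nearest in pattern to each member, genes overlapping a member, and the deleted receptors. Cux2, Cyp2a4, Cyp7b1, Xist and Ddx3y were added after their values were seen. Alternatives were other pseudocounts, filters, scalings and tests, a replicate block, and leaving out each liver. The values of some genes that this rule names are not reported here, and they are left out of the plots.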

Additional observations from a re-analysis of the deposited data

How the results depend on the processing

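The number of genes called by limma at an adjusted P value of 0.05, 50 of those tested, was 25 with genes averaging 50 or more normalized counts, 1 without the variance trend, 567 with DESeq2 and 90 with the replicate number as a block. It ranged from 2 to 262 when each liver was left out (262 without WT replicate 1, 157 without WT replicate 2, 2 without LXRDKO replicate 1, 8 without LXRDKO replicate 2), and leaving a genotype with 1 liver assumes that it varies like the other. The difference between replicates 1 and 2 in WT did not correlate with that in LXRDKO livers (correlation 0.0031 over 15578 genes). With 1 such difference per genotype, this cannot tell whether the replicate numbers pair the mice. The replicate block changed no call among the 9 factors. Hnf4a passed the threshold with DESeq2 (log2 fold change 0.61), and Foxa2 with DESeq2 (0.70) and without WT replicate 2 (0.87), in 1 and 2 of 16 alternatives respectively, and no other factor passed in any. When each liver was left out, the log2 fold change ranged from 0.43 to 0.77 for Hnf4a, 0.55 to 0.87 for Foxa2, 0.17 to 0.45 for Cebpb, 0.07 to 0.43 for Prox1 and −0.34 to −0.17 for Cebpa. The direction turned for Foxa1 (0.0241 with library-total scaling, range −0.15 to 0.0927), Foxa3 (−0.0244 to 0.45), Onecut1 (−0.49 to 0.0893) and Onecut2 (0.0453 with library-total scaling, range −0.21 to 0.19), and for the log2 difference of the Onecut2 to Onecut1 ratio (range −0.19 to 0.58, with the lowest when WT replicate 2 was left out). Orm2, Fkbp5, Cdh5, Kdr, Cd163, Marco, Nr1h3 and Nr1h2 lost their limma call without either LXRDKO liver (adjusted P value up to 0.211, for Orm2), and Cd5l and Clec4f kept it without any 1 liver. Without WT replicate 1, limma also called Cyp8b1, Fabp1, Tsc22d3, Cela1, Timd4 and Vsig4 among the listed genes. The cause was not tested. Medians of the gene lists moved by more than their spread in 29 of 304 alternatives. That count includes limma without the trend, robust limma and the replicate block, which leave the medians unchanged by design. It is therefore no measure of how stable the medians are. With 2 livers per genotype, no single-gene exact test can reach 0.05.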
